A study of Homo sapiens with 2 samples.

Results

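The genes described here encode the subunits of a DNA-binding complex of blood progenitors: the basic helix-loop-helix (bHLH) factors TAL1 and LYL1, their E-protein partners TCF3, TCF4 and TCF12, the LIM-only proteins LMO2 and LMO4, the LIM-binding protein LDB1, and the zinc finger factor GATA2. They were chosen by symbol, and all 9 were found once each among the 50464 gene symbols of the deposited table. The cells were KASUMI-1, a line of human acute myeloid leukaemia with the RUNX1-RUNX1T1 fusion, and their RNA was sequenced. The USP6 culture had been infected with a lentivirus named for the deubiquitinase USP6. The other had been infected with the lentivirus pccl, which is treated as its control although the labels do not call it one. Both are therefore lentivirus-infected cells of the same line, and the sources used here give neither the time after infection nor any selection. With 1 library in each group there is no replicate check on any difference and no test was run. Intervals are exact 95% intervals for counting error only, which reads copied by PCR can make too narrow.

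In this complex TAL1 or LYL1 pairs with an E protein to bind the short DNA motif called an E-box. LMO2 bridges the pair to a GATA factor and to LDB1, which binds itself and so can bring distant regulatory regions together. LYL1 and TAL1 are close relatives with overlapping roles in blood stem and progenitor cells, and GATA2 maintains those cells. In KASUMI-1 cells the RUNX1-RUNX1T1 fusion protein is known to sit in a complex with E proteins, LYL1, LMO2 and LDB1. The series title concerns stabilisation of RUNX1 fusion proteins by USP6, and the comparison made here is of the messages of the partner proteins between the USP6 and pccl libraries.

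The libraries had 12518795 counts (USP6) and 12306442 counts (pccl), of which the mitochondrial genome took 45.7% and 49.9%. The USP6 gene itself had 70 counts in the USP6 library and 8 in the pccl library, a ratio of 8.6 (4.13 to 20.7), and how much of the message of the lentiviral construct was counted there is not known. A gene was taken as expressed at 1 FPKM (fragments per kilobase of gene length, scaled to the library total) or more in the higher library. The USP6 gene lay under this in both, at 0.3402 FPKM in the USP6 library and 0.03955 in the pccl library. Differences are log2((USP6 + 1)/(pccl + 1)) of FPKM, called higher or lower at or past 1 or -1. Of the 8 markers listed for the leukaemic blasts, 7 reached 1 FPKM, with 2 called higher, MPO (122 FPKM in the USP6 library and 27.4 in the pccl library) and ANPEP (2.39 and 0.451), and 2 lower, KIT (39.99 and 99.3) and CD34 (4.19 and 12.6). Over all expressed genes 13.7% were called higher and 11.4% lower. Once centred on the GC trend described further down, MPO (1.66), KIT (-1.02) and CD34 (-1.26) kept their calls. ANPEP came to 0.78, inside the limit, and CD33 moved from 0.85 to 1.03, past it. The part of the marker differences in those of the complex genes was not tested. 

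The promoter windows of the 3 genes past that limit, LYL1, GATA2 and LDB1, are shown with that of TAL1, the relative of LYL1, because the proteins of this complex bind GATA and E-box motifs and both bHLH genes are known to be regulated by GATA factors. Each runs 5′ to 3′ on the gene's own strand, from 250 bases before to 50 bases after a RefSeq start (GRCh38.p14). Capitals mark GATAA or its reverse complement TTATC.
LYL1: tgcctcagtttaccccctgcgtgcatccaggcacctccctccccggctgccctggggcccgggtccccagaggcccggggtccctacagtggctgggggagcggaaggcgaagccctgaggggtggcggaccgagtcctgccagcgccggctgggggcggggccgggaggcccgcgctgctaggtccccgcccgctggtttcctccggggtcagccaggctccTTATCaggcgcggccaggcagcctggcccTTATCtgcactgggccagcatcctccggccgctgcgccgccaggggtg
TAL1: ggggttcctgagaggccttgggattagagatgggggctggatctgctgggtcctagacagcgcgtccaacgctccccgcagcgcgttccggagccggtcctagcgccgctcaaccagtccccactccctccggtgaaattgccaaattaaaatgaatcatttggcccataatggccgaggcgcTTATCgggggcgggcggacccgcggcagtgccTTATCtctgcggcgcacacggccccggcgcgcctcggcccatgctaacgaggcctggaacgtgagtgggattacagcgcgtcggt
GATA2: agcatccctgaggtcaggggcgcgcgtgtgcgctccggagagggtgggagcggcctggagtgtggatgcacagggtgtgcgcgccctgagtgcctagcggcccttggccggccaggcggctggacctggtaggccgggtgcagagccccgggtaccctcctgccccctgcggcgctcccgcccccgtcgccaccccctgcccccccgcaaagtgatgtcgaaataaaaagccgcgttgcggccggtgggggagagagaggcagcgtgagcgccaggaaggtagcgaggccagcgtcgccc
LDB1: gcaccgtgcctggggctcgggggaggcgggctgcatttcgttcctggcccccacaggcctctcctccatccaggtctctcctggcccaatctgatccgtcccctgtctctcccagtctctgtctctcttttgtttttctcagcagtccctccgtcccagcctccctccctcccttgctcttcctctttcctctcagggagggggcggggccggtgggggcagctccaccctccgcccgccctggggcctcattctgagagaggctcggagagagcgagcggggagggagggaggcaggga
The LYL1 window (chr19:13102809-13103108, minus strand) holds 2 matches, whose leftmost bases lie at -27 and 3 from the start. The TAL1 window (chr1:47232286-47232585, minus strand) also holds 2, at -67 and -35. The windows of GATA2 (chr3:128493152-128493451, minus strand) and LDB1 (chr10:102114953-102115252, minus strand) hold 0, and the LDB1 start used lies 5451 bases inside the deposited gene. Over all 35116 RefSeq windows of this length, 22.7% hold the motif on either strand. The E-box CANNTG, found in 68.7% of all windows, occurs once in the TAL1 window shown and in none of the other 3. TAL1 and GATA2 have 2 RefSeq windows each, and the one nearest the deposited gene start is shown. The other TAL1 window holds neither motif, and the other GATA2 window holds 4 E-boxes and 0 GATAA. RefSeq windows matched 8 of the 9 genes, all but LMO2.

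LYL1 was by far the most abundant of the 9 genes and was higher in the USP6 library, while LDB1 was lower and was the scarcest of the expressed members there. GATA2 was higher and LMO2 lower, by close to the limit. Of the 9 genes, 8 had counts and 7 were expressed, and of those 7, 2 were called higher (LYL1 and GATA2) and 1 lower (LDB1). Over all 10153 expressed genes 25.1% were called, 13.7% higher and 11.4% lower. With 7 genes, 3 calls cannot be set apart from that background. In bulk RNA, fewer cells that carry a message and less of it per cell cannot be told apart.

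**Figure D1:**
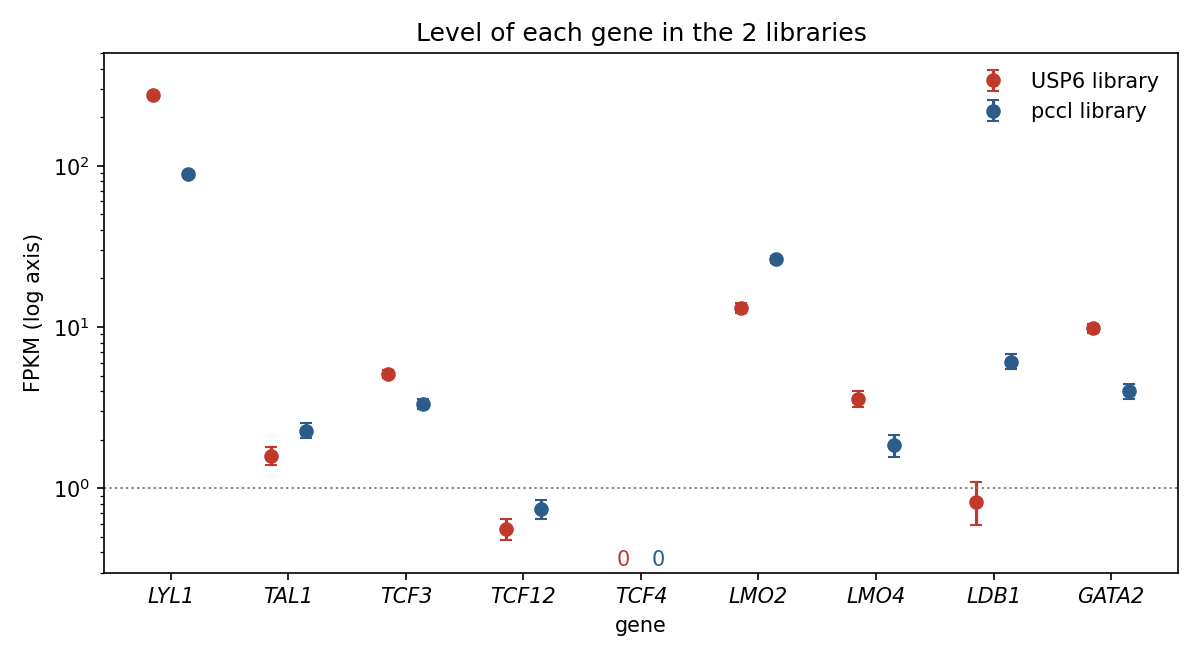
FPKM of each gene on a log axis in the USP6 library (red, left) and the pccl library (blue, right). Points are the single libraries, bars are 95% counting intervals, the dotted line is 1 FPKM, and 0 marks TCF4, without counts in either library. LYL1 lies at 273 and 89.2 FPKM, and LDB1 at 0.817 and 6.11 FPKM.

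LYL1 (ENSG00000104903, chromosome 19 from 13099033 to 13103161, minus strand) had 13485 counts and 273 FPKM in the USP6 library (95% interval 269 to 278), against 4325 counts and 89.2 FPKM in the pccl library (86.6 to 91.9). Its level was above that of 99.2% of expressed genes in the USP6 library and 98.2% in the pccl library. The ratio was 3.07 (2.96 to 3.17) and the log2 ratio 1.61, which ranked 354th from the highest of the 10153 expressed genes. TAL1 (ENSG00000162367, chromosome 1 from 47216290 to 47232220, minus strand) was scarce, with 234 counts and 1.59 FPKM in the USP6 library (1.39 to 1.81) and 330 counts and 2.28 FPKM in the pccl library (2.04 to 2.54). TAL1 thus leaned the other way, 1.43-fold lower (1.21 to 1.70), with a log2 ratio of -0.34 that did not reach the limit. LYL1 made up 99.4% of the FPKM of the pair in the USP6 library (99.3 to 99.5) and 97.5% in the pccl library (97.2 to 97.8). Per unit of length there were 172 LYL1 messages for each TAL1 message in the USP6 library (151 to 197), against 39.1 in the pccl library (35.0 to 43.9).

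The surroundings of LYL1 were also higher in the USP6 library. All 6 expressed genes within 50 kb had log2 ratios above 0, and 4 of them passed the limit. TRMT1, an RNA methyltransferase gene 1741 bases away, had 27.8 FPKM in the USP6 library and 10.9 in the pccl library. STX10, a syntaxin gene of membrane traffic, had 11.4 and 4.59 FPKM in those libraries, and NACC1, a transcriptional regulator, 50.4 and 23.9 FPKM. The noncoding gene AC011446.1 had 11 counts in the USP6 library and 1 in the pccl library, and NFIX, a nuclear factor I gene, 168 and 33 counts. IER2, an immediate early gene, differed least, with 19.4 FPKM in the USP6 library and 16.6 in the pccl library. Within 500 kb, 9 of 28 expressed genes were called higher and 1 lower, and the median log2 ratio was 0.49. Over all expressed genes 13.7% were called higher and 11.4% lower, with a median of 0.06. The values of the neighbours were not centred on GC. The same window around TCF3 held 12 of 32 expressed genes called higher and 1 lower, with a median of 0.61. That around TCF12 held 4 expressed genes, none past the limit, with a median of 0.68. The median was 0.05 around LDB1, -0.36 around TAL1 and -0.55 around GATA2. It was -0.73 around LMO4, on 2 expressed genes, and -0.86 around TCF4, on 1. Around LMO2 it was -1.06, with 2 of 3 expressed genes called lower and 0 higher. Whether its neighbours bear on the difference of LYL1 or of any other member was not tested.

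TCF3, the gene of the E proteins of the E2A locus, was the main E-protein message and was slightly more abundant in the USP6 library. It had 1232 counts and 5.14 FPKM in the USP6 library (4.86 to 5.44), against 783 counts and 3.32 FPKM in the pccl library (3.10 to 3.57), a ratio of 1.55 (1.41 to 1.69) and a log2 ratio of 0.51. TCF12, the HEB gene, had 169 counts and 0.555 FPKM in the USP6 library (0.475 to 0.646) and 222 counts and 0.742 FPKM in the pccl library (0.648 to 0.846). TCF12 lay under 1 FPKM in both libraries and was 1.34-fold lower (1.09 to 1.64), a log2 ratio of -0.16. TCF4, the third E-protein gene, had 0 counts in either library, which allows up to 3 counts, or 0.00378 FPKM in the USP6 library and 0.00385 in the pccl library. Neither TCF3 nor TCF12 reached the limit. TCF3 held 90.3% of the E-protein FPKM in the USP6 library (88.7 to 91.6) and 81.7% in the pccl library (79.4 to 83.9). Centred on the GC trend described further down, both log2 ratios change sign, to -0.08 for TCF3 and 0.16 for TCF12, so the direction of this shift is not kept there. TCF3 (ENSG00000071564) lies on chromosome 19 from 1609290 to 1652605 on the minus strand, TCF12 (ENSG00000140262) on chromosome 15 from 56918623 to 57299281 on the plus strand, and TCF4 (ENSG00000196628) on chromosome 18 from 55222331 to 55664787 on the minus strand.

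LMO2, the bridging LIM-only protein, was lower in the USP6 library. It (ENSG00000135363, chromosome 11 from 33858576 to 33892289, minus strand) had 834 counts and 13.1 FPKM in the USP6 library (12.2 to 14.0), against 1649 counts and 26.3 FPKM in the pccl library (25.1 to 27.6), 2.01-fold lower (1.85 to 2.19). With the pseudocount its log2 ratio was -0.96, just inside the limit, and it passed it at -1.05 with trimmed-mean (TMM) scaling and at -1.23 once centred on the GC trend described below. LMO4, a relative that also binds LDB1, leaned the other way. It (ENSG00000143013, chromosome 1 from 87328468 to 87348923, plus strand) had 317 counts and 3.57 FPKM in the USP6 library (3.18 to 3.98), against 161 counts and 1.84 FPKM in the pccl library (1.57 to 2.15), a ratio of 1.94 (1.60 to 2.36) and a log2 ratio of 0.68. LMO2 held 78.6% of the FPKM of both genes in the USP6 library (76.3 to 80.7) and 93.5% in the pccl library (92.4 to 94.4).

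LDB1 showed the widest difference of the 9 genes. It (ENSG00000198728, chromosome 10 from 102107560 to 102120453, minus strand) had 43 counts and 0.817 FPKM in the USP6 library (0.591 to 1.10), against 316 counts and 6.11 FPKM in the pccl library (5.45 to 6.82), 7.48-fold lower (5.42 to 10.5). The log2 ratio of -1.97 ranked 161st from the lowest of the 10153 expressed genes, and with a pseudocount of 5 it was -0.93, inside the limit. LDB1 was above 10.0% of expressed genes in the USP6 library and above 72.8% in the pccl library. It overlaps no other gene of the table. Within 50 kb, NOLC1, a nucleolar protein gene, had 0.929 FPKM in the USP6 library and 2.76 in the pccl library, PPRC1, a transcriptional coactivator, 4.09 and 5.79 FPKM, and HPS6, a gene of lysosome-related organelles, 2.41 and 1.32 FPKM. None of these 3 passed the limit.

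GATA2 (ENSG00000179348, chromosome 3 from 128479427 to 128493185, minus strand) had 848 counts and 9.80 FPKM in the USP6 library (9.15 to 10.5), against 341 counts and 4.01 FPKM in the pccl library (3.59 to 4.46). The ratio was 2.44 (2.15 to 2.78) and the log2 ratio 1.11, which was inside the limit at 0.59 once centred on GC and at 0.72 with a pseudocount of 5. Its antisense gene GATA2-AS1 overlaps it and had 46 counts in the USP6 library and 27 in the pccl library. Whether the libraries keep strand is not given in the sources used here. Reads of these 2 genes therefore cannot be told apart in the stretch they share, from 128489212 to 128493185. GATA2 was the GATA gene of these cells, since GATA1 had 6 counts in the USP6 library and 0 in the pccl library, GATA3 had 2 in each, and GATA6, at 35 and 33 counts in those libraries, stayed under 1 FPKM.

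In the order of FPKM, the USP6 library ran LYL1, LMO2, GATA2, TCF3, LMO4, TAL1, LDB1, TCF12 and TCF4. The pccl library ran LYL1, LMO2, LDB1, GATA2, TCF3, TAL1, LMO4, TCF12 and TCF4. LDB1 thus stood below GATA2, TCF3, LMO4 and TAL1 in the USP6 library and above all 4 in the pccl library, where per covered exon base TCF3, at 10.5 FPKM, lay above LDB1, at 9.20. On that scale LDB1, at 1.23 FPKM, lay below TCF12, at 1.43, in the USP6 library. In the USP6 library the intervals of LDB1 and TCF12 overlapped, and in the pccl library so did those of TAL1 and LMO4. Against each LDB1 message, per unit of length, there were 16.0 LMO2 messages in the USP6 library (11.8 to 22.3) and 4.31 in the pccl library (3.82 to 4.87). For GATA2 these figures were 11.99 per LDB1 message in the USP6 library (8.82 to 16.7) and 0.656 in the pccl library (0.561 to 0.767), and for LYL1 335 (248 to 463) and 14.6 (13.0 to 16.4). These are ratios of RNA and not of protein.

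**Figure D2:**
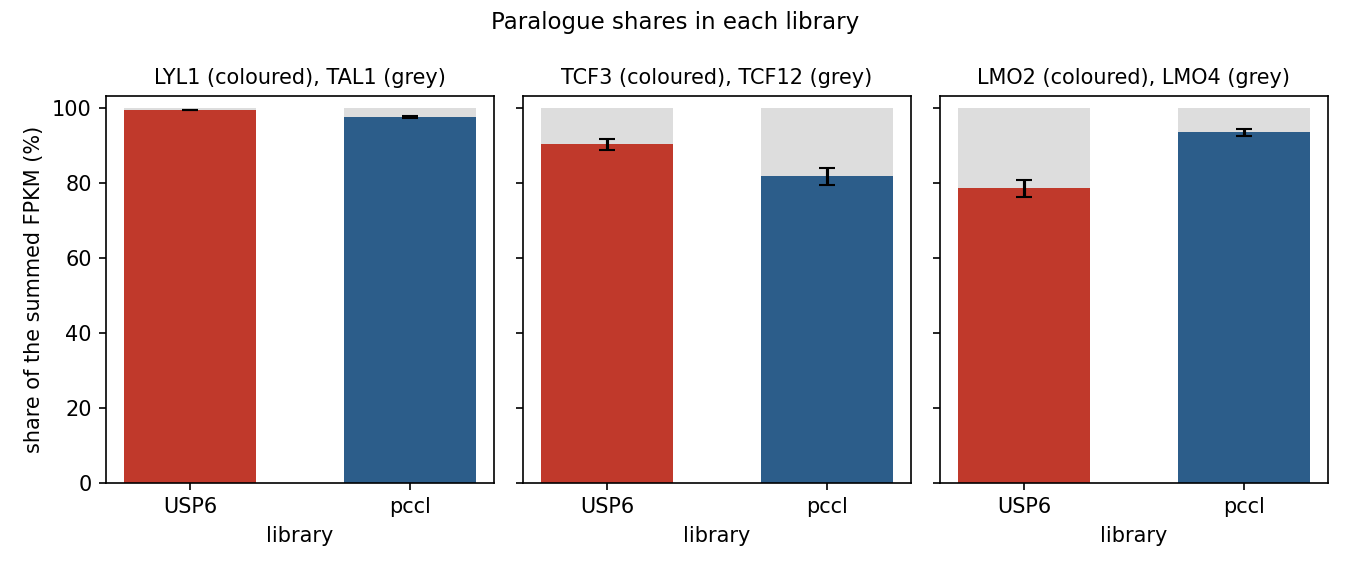
Share of the summed FPKM of each pair of relatives in the USP6 library (red, left bar) and the pccl library (blue, right bar), with the other gene in grey and bars of 95% counting error. LYL1 holds 99.4% and 97.5% of its pair, TCF3 90.3% and 81.7%, and LMO2 78.6% and 93.5%.

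The gene length behind the deposited FPKM matters for levels set side by side. In 86.5% of 11329 genes with more than 50 counts, that length equalled, within 0.1%, the sum of all distinct exons of GENCODE release 29, with overlapping exons of different transcripts each added in full. All 8 members with counts had exactly such a length to the nearest base. The sum was 3.15 times the bases that the exons of TCF3 cover, 19138 against 6080, and 2.57 times for TCF12, 24309 against 9446, but 1.26 times for LYL1 and 1.22 times for LMO4. The median over those genes was 1.57. FPKM of genes with many transcripts is thus understated, equally in both libraries. Per covered exon base, TCF3 had 16.2 FPKM in the USP6 library and 10.5 in the pccl library, and TCF12 had 1.43 and 1.91 FPKM, so that 8 of the 9 genes reached 1 FPKM. On that scale TCF3 lay above GATA2 in both libraries, which had 15.2 FPKM in the USP6 library and 6.21 in the pccl library. LYL1 then had 105 times the FPKM of TAL1 in the USP6 library and 23.95 times in the pccl library.

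The difference between the libraries also moved with the base composition of the messages, and several of these genes are rich in G and C. Expressed genes were split into 10 classes of equal size by the GC content of the longest transcript. The median log2 ratio was -0.37 in the lowest class and 0.74 in the highest. LYL1, at 57.4% GC, kept a log2 ratio of 1.22 once centred on this trend, and was 36th from the highest of the 1010 genes in its class, of which 16.8% were called higher. GATA2, at 59.7% GC, had 0.59 after centring, inside the limit. It was 206th from the highest in its class, of which 26.9% were called higher. LDB1, also at 59.7% GC and in the same class, came to -2.48. It was 6th from the lowest of those 1010 genes, of which 2.67% were called lower. LMO2, at 55.5% GC, was 68th from the lowest in the class it shares with LYL1, of which 5.84% were called lower. TCF3, at 61.2% GC, came to -0.08 and TCF12, at 40.8%, to 0.16, so both changed sign. TAL1, at 53.2% GC, came to -0.51 and LMO4, at 43.9%, to 0.92. After centring, LYL1 alone was called higher and LDB1 and LMO2 lower, where 9.68% and 9.84% of 10101 genes with a GC value were called in those directions. The part of base composition in the differences was not tested beyond this.

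**Figure D3:**
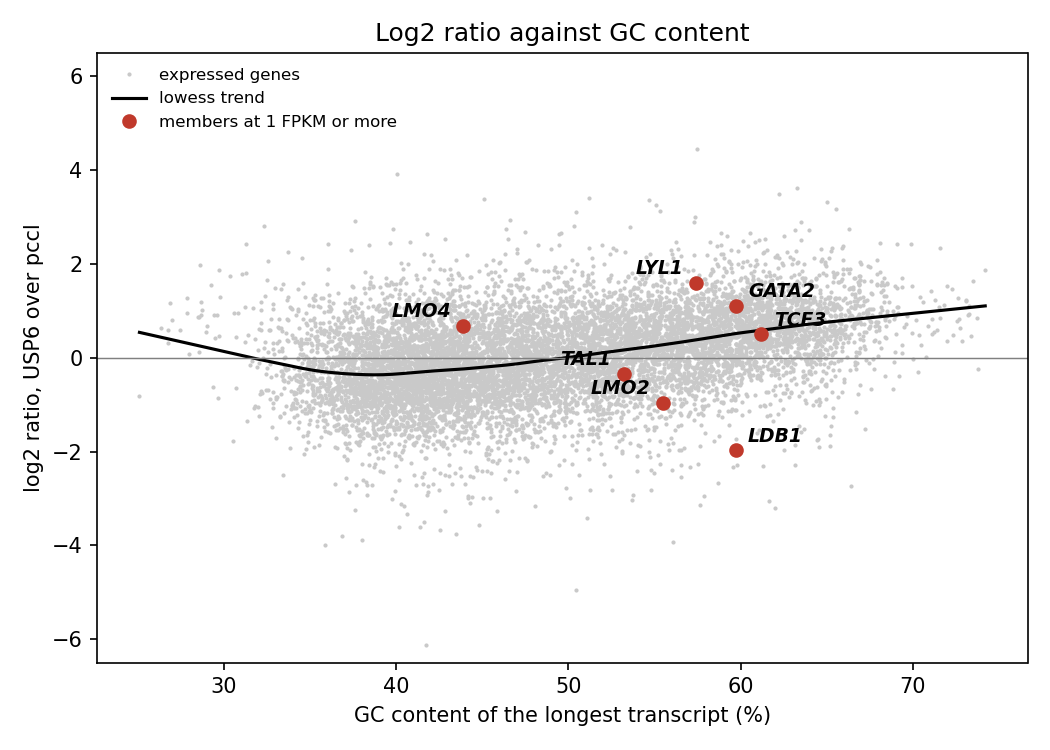
Log2 ratio of USP6 over pccl against the GC content of the longest transcript, in percent, for expressed genes (grey) and the 7 expressed members (red), with the lowess trend (black). Distances from the trend are 1.22 for LYL1, 0.92 for LMO4, 0.59 for GATA2 and -0.08 for TCF3. They are -0.51 for TAL1, -1.23 for LMO2 and -2.48 for LDB1.

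**Figure D4:**
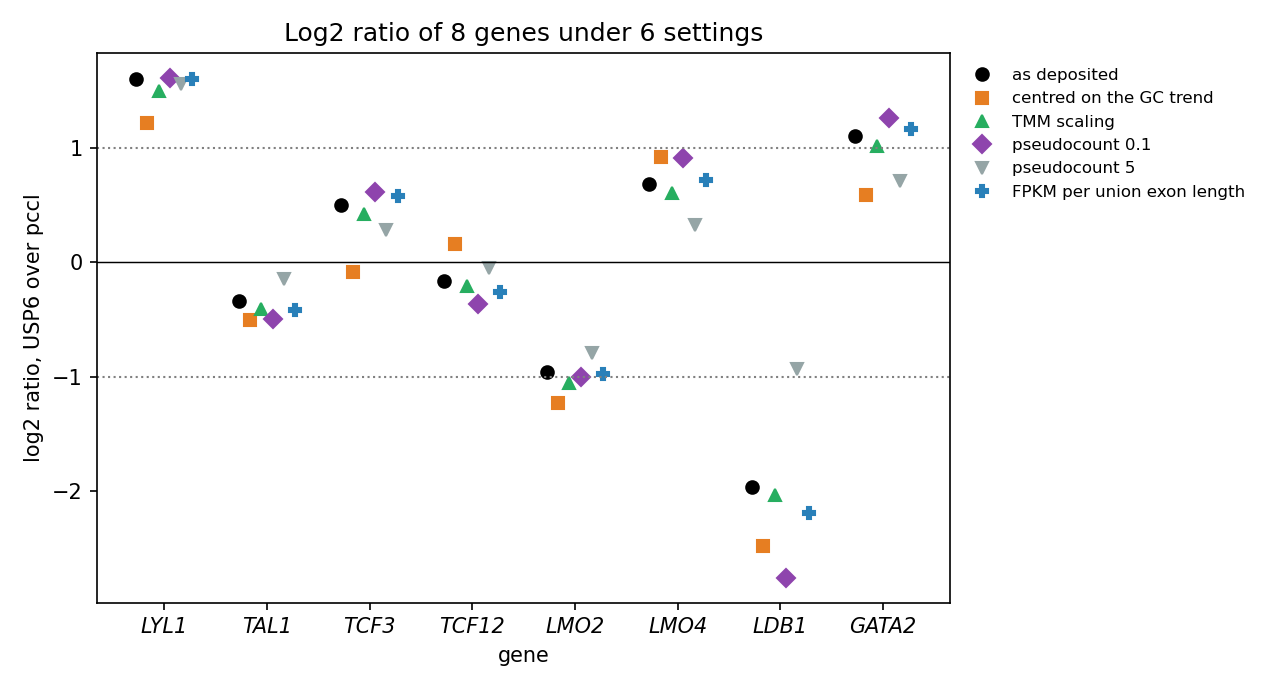
Log2 ratio of USP6 over pccl for the 8 genes with counts under 6 settings, with dotted lines at 1 and -1. LYL1 stays above 1 throughout, LDB1 is inside the limit with a pseudocount of 5 alone, GATA2 is inside it when centred on GC or with a pseudocount of 5, and TCF3 and TCF12 change sign when centred on GC.

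The other genes of the pathway went both ways. Over 8 lists of 94 genes, 44 were expressed, of which 7 were called higher and 7 lower (31.8%, beside the 25.1% of all expressed genes). The ID proteins lack the DNA-binding basic region and hold E proteins off DNA. ID2 was the 1 of their 3 expressed genes that was called higher, with 11.1 FPKM in the USP6 library and 1.56 in the pccl library, a ratio of 7.15 (5.69 to 9.08). ID1 had 18.0 FPKM in the USP6 library and 12.3 in the pccl library, ID3 had 1.65 and 0.969 FPKM, and ID4 had no counts. Once centred on GC the log2 ratio was 2.08 for ID2 and 0.06 for both ID1 and ID3. Summed, the ID genes had 5.41 times the FPKM of the E-protein genes in the USP6 library and 3.65 times in the pccl library, or 3.27 and 2.17 times per covered exon base.

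Other tissue bHLH factors were few. Of 18 such genes, 14 had no counts in either library and 3 were expressed, none past the limit. The mesoderm factor MESP1 had 3.65 FPKM in the USP6 library and 1.38 in the pccl library, TWIST1 had 4.70 and 2.26 FPKM, and SCX, on 30 and 13 counts, 2.40 and 1.06 FPKM. TAL2, a relative of TAL1, had no counts in either library.

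Among the relatives and binding partners of LMO and LDB proteins, 1 of 5 expressed genes was called lower and 0 higher. This was RLIM, a ubiquitin ligase that marks LIM cofactors such as LDB1 for degradation, with 2.96 FPKM in the USP6 library and 7.21 in the pccl library (2.44-fold lower, 2.17 to 2.74). Its log2 ratio of -1.05 came to -0.69 once centred on GC, which ends the call. SSBP4, one of the single-strand DNA-binding proteins of the SSBP family, had 49.2 FPKM in the USP6 library and 24.1 in the pccl library, at a log2 ratio just under 1 that came to 0.11 once centred on GC. SSBP3, which binds and stabilises LDB1, had 4.54 and 3.26 FPKM in those libraries, and the LIM-only gene LMO1 had 62 and 23 counts. SSBP1, a mitochondrial protein that shares the family name, had 7.83 FPKM in the USP6 library and 13.0 in the pccl library. LDB2, the only relative of LDB1 on the list, had no counts.

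ZFPM1, the cofactor FOG that binds GATA factors, was called higher, with 4.61 FPKM in the USP6 library and 0.931 in the pccl library, a ratio of 4.95 (3.86 to 6.42). At 69.0% GC its log2 ratio of 1.54 came to 0.63 once centred on the trend. It was the 1 expressed gene of the 7 GATA relatives and cofactors. Of 12 expressed corepressors and coactivators, 1 was called higher and 0 lower, and the median was -0.03. IRF2BP2, a corepressor known to bind the ETO family protein CBFA2T3, had 63.2 FPKM in the USP6 library and 29.6 in the pccl library. RCOR1, the CoREST scaffold, had 1.86 and 4.39 FPKM in those libraries, the deacetylase gene HDAC2 6.14 and 11.4 FPKM, and the arginine methyltransferase gene PRMT1 24.4 and 33.8 FPKM. CBFA2T3 itself stayed under 1 FPKM in both libraries, with 30 counts in the USP6 library and 5 in the pccl library.

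Of the RUNX1, CBFB and ETS genes whose proteins share binding regions with this complex in progenitors, 4 of 5 were below 0 and 1 passed the limit in each direction, with a median of -0.65. ERG, an ETS factor of stem cells, had 1.84 FPKM in the USP6 library and 6.03 in the pccl library, and SPI1, an ETS factor of myeloid cells, 230 and 93.95 FPKM. CBFB, the partner subunit of RUNX1, had 4.96 FPKM in the USP6 library and 9.26 in the pccl library, and RUNX1 had 4.83 and 8.15 FPKM. Once centred on GC, ERG stayed past the limit at -1.15, while SPI1, at 65.1% GC, had 1.29 as deposited and 0.52 centred, inside it.

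Of 10 expressed genes known as targets of TAL1 and GATA complexes, 5 were called lower and 2 higher, with a median of -0.87, beside the 11.4% lower and 13.7% higher of all expressed genes. Once centred on GC, GFI1, CDK6, KIT and STAT5A kept their calls, whereas MYB came to -0.997, NFE2 to 0.82 and ZFPM1 to 0.63, all inside the limit. GFI1, a transcriptional repressor, had 4 counts in the USP6 library and 894 in the pccl library. The kinase gene CDK6 had 11.2 FPKM in the USP6 library and 48.1 in the pccl library, and KIT, the stem cell factor receptor, 39.99 and 99.3 FPKM. MYB, a progenitor transcription factor, had 1.43 and 4.72 FPKM in those libraries, and the signalling gene STAT5A 46 and 288 counts. The erythroid and megakaryocyte factor gene NFE2 and ZFPM1, which stands in this list too, were the higher ones, NFE2 with 203 counts in the USP6 library and 55 in the pccl library. Of 6 expressed genes known as targets of E proteins, 2 were called higher and 0 lower, with a median of 0.22. These were B-lineage genes, IGLL1 with 8.21 FPKM in the USP6 library and 1.80 in the pccl library, and CD79A with 10.5 and 2.60 FPKM. HES1, a transcriptional repressor induced by Notch, had 3.40 FPKM in the USP6 library and 4.87 in the pccl library. The receptor gene NOTCH1 had 1.14 and 0.827 FPKM in those libraries.

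**Figure D5:**
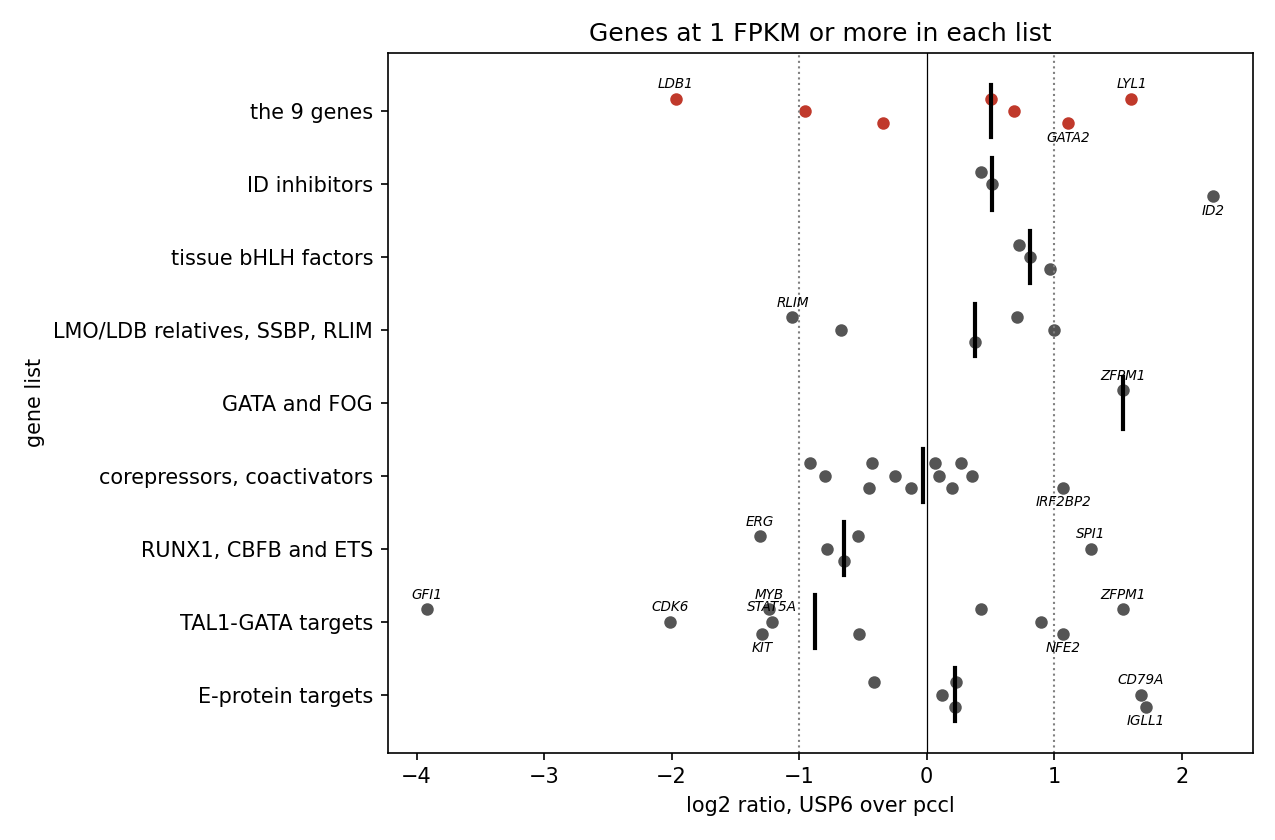
Log2 ratio of USP6 over pccl for the expressed genes of each list, with the 9 genes of this complex on top in red, list medians as black bars and the limit as dotted lines. Genes past the limit are named. The TAL1-GATA targets run from GFI1 at -3.92 to ZFPM1 at 1.54.

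By closeness of the log2 ratio over the 2 libraries, the list genes nearest to LYL1 were ZFPM1 (0.07 apart) and CD79A (0.07), those nearest to GATA2 were NFE2 and IRF2BP2 (0.04 each), and those nearest to LDB1 were CDK6 (0.05) and ERG (0.66). With 1 ratio a gene, this is a description alone.

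Markers of the other cell types in which this complex is known to act were mostly at or near 0. Of 15 erythroid markers, 7 had no counts and 2 were expressed, EPOR and the transferrin receptor gene TFRC. The summed FPKM was 5.91 in the USP6 library and 26.8 in the pccl library, of which TFRC made up 3.63 and 25.9. TFRC was called lower, beside 11.4% of all expressed genes, at a log2 ratio of -2.54, or -2.24 once centred on GC. EPOR leaned the other way without reaching the limit, with 1.58 FPKM in the USP6 library and 0.387 in the pccl library. The defining genes ALAS2, AHSP and SLC4A1 had no counts in either library, and the globin genes had at most 2. Of 10 megakaryocyte markers, 4 had no counts, PF4 and PPBP among them, and the summed FPKM was 37.2 in the USP6 library and 20.0 in the pccl library, led by GP1BB. Of 8 mast cell and basophil markers KIT alone was expressed, and MS4A2 and CMA1 had no counts. The list summed to 40.9 FPKM in the USP6 library and 99.6 in the pccl library. Of 9 T cell markers 4 were expressed, with sums of 31.7 FPKM in the USP6 library and 29.04 in the pccl library, most of it CD3D. Of those 4, 2 were called higher, beside 13.7% of all expressed genes. The median log2 ratio was 1.24, or 1.29 once centred on GC. CD3E had 372 counts in the USP6 library and 75 in the pccl library, CD2 81 and 4, and TRAC 27 and 3. CD3D leaned the other way, with 22.6 FPKM in the USP6 library and 27.8 in the pccl library, a log2 ratio of -0.29. Of 7 B cell markers 3 were expressed, with sums of 14.0 FPKM in the USP6 library and 4.10 in the pccl library. Of those 3, 2 were called higher, CD79A and CD79B. The median log2 ratio was 1.08, or 0.55 once centred on GC. MS4A1 had 1 count in the USP6 library and 0 in the pccl library. The part of these markers in the differences of the complex genes was not tested.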

How the data were processed

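RNA of 1 KASUMI-1 culture per group was sequenced, and the groups were taken from the labels. HISAT2 2.0.4, StringTie 1.3.3b and edgeR were used upstream, in roles not stated, per the submitters' processing notes. Build, strandedness and RNA selection are not given in the sources used here. For 50868 gene identifiers the authors deposited whole-number counts. They also deposited FPKM, which here equals the count over a gene length and the column total. Of 50111 identifiers in GENCODE release 29 (GRCh38), 94.8% had the same start and end, and coordinates are those of the table.

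Values of 1 symbol were summed. With 0 residual degrees of freedom no test was made. Ratios of FPKM carry exact conditional binomial (Clopper-Pearson) 95% intervals from the counts, and levels carry exact binomial ones. A count of 0 was given a floor of 3 counts. The GC trend was a lowess fit (span 0.3) over expressed genes. Named were all 9 genes, and the neighbours of LYL1, LDB1 and GATA2 within 50 kb at 1 FPKM or more. Such neighbours of TAL1, TCF3 and TCF12 were not named. From each list, up to 4 expressed genes of largest absolute log2 ratio and any past the limit were named. GATA1, GATA3, GATA6, TAL2, CBFA2T3, ID4, LDB2, SSBP3 and single markers were named after their values were seen. The genes and lists were chosen with earlier results of these data known. Alternatives were other pseudocounts, filters, scalings (TMM by edgeR 4.0.16), a 1.5-fold limit, GC centring and, chosen after seeing the data, FPKM per covered exon base. The steps were tested on simulated data. Python 3.11.15, pandas 2.3.3, SciPy 1.17.1, statsmodels 0.14.6 and R 4.3.3 were used. Some single markers of the lists are not reported here.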

Additional observations from a re-analysis of the deposited data

How the results depend on the processing

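Of the 7 expressed members, 3 were past the limit. There was 1 with a pseudocount of 5 and there were 5 with a 1.5-fold limit. There were 4 with a pseudocount of 0.1, TMM scaling, a median log2 ratio of 0 or depth from nuclear genes, LMO2 being the one added. TMM and nuclear depth scaled the ratio of the libraries by -0.10 and -0.12 in log2, before the pseudocount, which makes the shift smaller for genes of low level. LYL1 stayed between 1.22 and 1.61 under the 7 settings tried for single genes, LDB1 between -2.76 and -0.93, and GATA2 between 0.59 and 1.27. Of all expressed genes, 2552 were past the limit, against 4288 with a pseudocount of 0.1, 665 with 5, 5273 with a 1.5-fold limit and 1490 with a filter of 5 FPKM. Of the pathway genes 14 were past it, against 6 with a pseudocount of 5, 25 with a 1.5-fold limit and 9 once centred on GC.

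Shares by counts in the USP6 library were 87.9% for TCF3, 98.3% for LYL1 and 72.5% for LMO2, and 77.9%, 92.9% and 91.1% in the pccl library. Per covered exon base they were 91.9%, 99.1% and 83.2% in the USP6 library and 84.6%, 96.0% and 95.05% in the pccl library. In each unit the share of TCF3 and LYL1 was higher in the USP6 library and that of LMO2 lower. The units differ by a fixed length for each gene, so this direction could not change among them. Once centred on GC, the log2 ratio of TCF3 (-0.08) lay below that of TCF12 (0.16), against the direction of the share. LYL1 (1.22) stayed above TAL1 (-0.51), and LMO2 (-1.23) below LMO4 (0.92). No paired analysis was possible because each group held 1 library, and for the same reason no library could be left out. LDB1 in the USP6 library rests on 43 counts, the least of the expressed members.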
